A study of Homo sapiens with 2 samples.

Results

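The USP (ubiquitin-specific protease) family of deubiquitinases was followed in an RNA immunoprecipitation of the topoisomerase TOP3B. Its members were the rows whose symbol is USP, digits and at most 1 letter, which gave 43 genes of 13075 in the deposited table. Both groups came from HEK293, a human embryonic kidney line at passage 15, into which a FLAG-tagged R338W form of TOP3B had been transfected. The RIP group was RNA recovered from lysate with a monoclonal anti-FLAG antibody, and the INPUT group was RNA of the same kind of cells with no antibody. Each group was 1 library, so no value below has a replicate check and no p-value is given. The bait was transfected, and a RIP from cells without it was not analysed here.

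Ubiquitin is a small protein that is joined to other proteins, often to send them to the proteasome, and deubiquitinases take it off again. USPs are the largest class of human deubiquitinases and are cysteine proteases: their catalytic domain holds a short box with the active cysteine. Members act on histones, on the ubiquitin ligase MDM2, at stalled replication forks, on endosomes and mitochondria, and in signalling. TOP3B relaxes DNA and can act on RNA, and the R338W form is known to stay joined to the nucleic acid it has cut. The series asked which RNAs are held by TOP3B in this way.

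The family is recognised in its mRNAs by the stretch that encodes this catalytic box, and 8 such stretches are shown because they belong to members at both ends of the ranking, to the most abundant member, to a close pair of paralogs, and to the member without the cysteine. Each has 39 bases (13 codons) of a GENCODE release 29 transcript on GRCh38, and capitals mark the catalytic codon. A box was found in 41 of the 43 members, with the cysteine codon TGC in 23 and TGT in 17. USP39 alone had GAT, an aspartate codon, there, and no box of this spacing was found in USP53 and USP54.
USP40: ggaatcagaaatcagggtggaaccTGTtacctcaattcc
USP11: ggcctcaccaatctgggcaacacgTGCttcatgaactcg
USP7: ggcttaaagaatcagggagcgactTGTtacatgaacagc
USP9X: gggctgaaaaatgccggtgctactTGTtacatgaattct
USP39: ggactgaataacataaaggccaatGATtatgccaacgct
USP46: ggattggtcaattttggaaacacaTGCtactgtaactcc
USP12: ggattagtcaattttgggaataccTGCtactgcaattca
USP1: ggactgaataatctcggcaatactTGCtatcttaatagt

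These stretches lie in coding exons. They are at chr2:233565393-233565431 on the minus strand for USP40, chrX:47240829-47240867 on the plus strand for USP11 and chr16:8919070-8919108 on the minus strand for USP7. For USP9X the position is chrX:41201128-41201166, for USP39 it is chr2:85625644-85625682, and for USP1 it is chr1:62441561-62441599, all on the plus strand. The stretches of USP46 (chr4:52628137-52631075) and USP12 (chr13:27105918-27116527), both on the minus strand, cross an exon junction.

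Most USP mRNAs were somewhat higher in the RIP library than in the INPUT library, and few by as much as 2-fold. Levels are FPKM (fragments per kilobase of transcript, scaled for the fragments of the library), and the ratio is log2((RIP + 1)/(INPUT + 1)), so 0 means an equal level and 1 means 2-fold. Of the 43 members, 40 reached 5 FPKM in at least 1 library, and their median ratio was 0.52, with quartiles of 0.27 and 0.76. Over all 11990 genes past that floor the median was 0.13, and over 10477 protein-coding nuclear genes it was 0.15. Ratios above 0 were found in 35 of 40 members (87.5%), against 58.7% of all genes and 60.8% of coding genes. Those of at least 0.5 were found in 23 members (57.5%), against 24.7% of all and 24.2% of coding genes. At the 2-fold limit 2 members were higher and 0 lower, where 4.90% of all genes were higher and 2.50% lower. For coding genes these shares were 3.58% and 0.420%, so the family differed from coding genes at large by a shift of many members. It did not differ by members past the 2-fold limit with the values as deposited, and other limits and scalings are given below. Against coding genes with as many exons the shift was smaller, as given below.

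**Figure D1:**
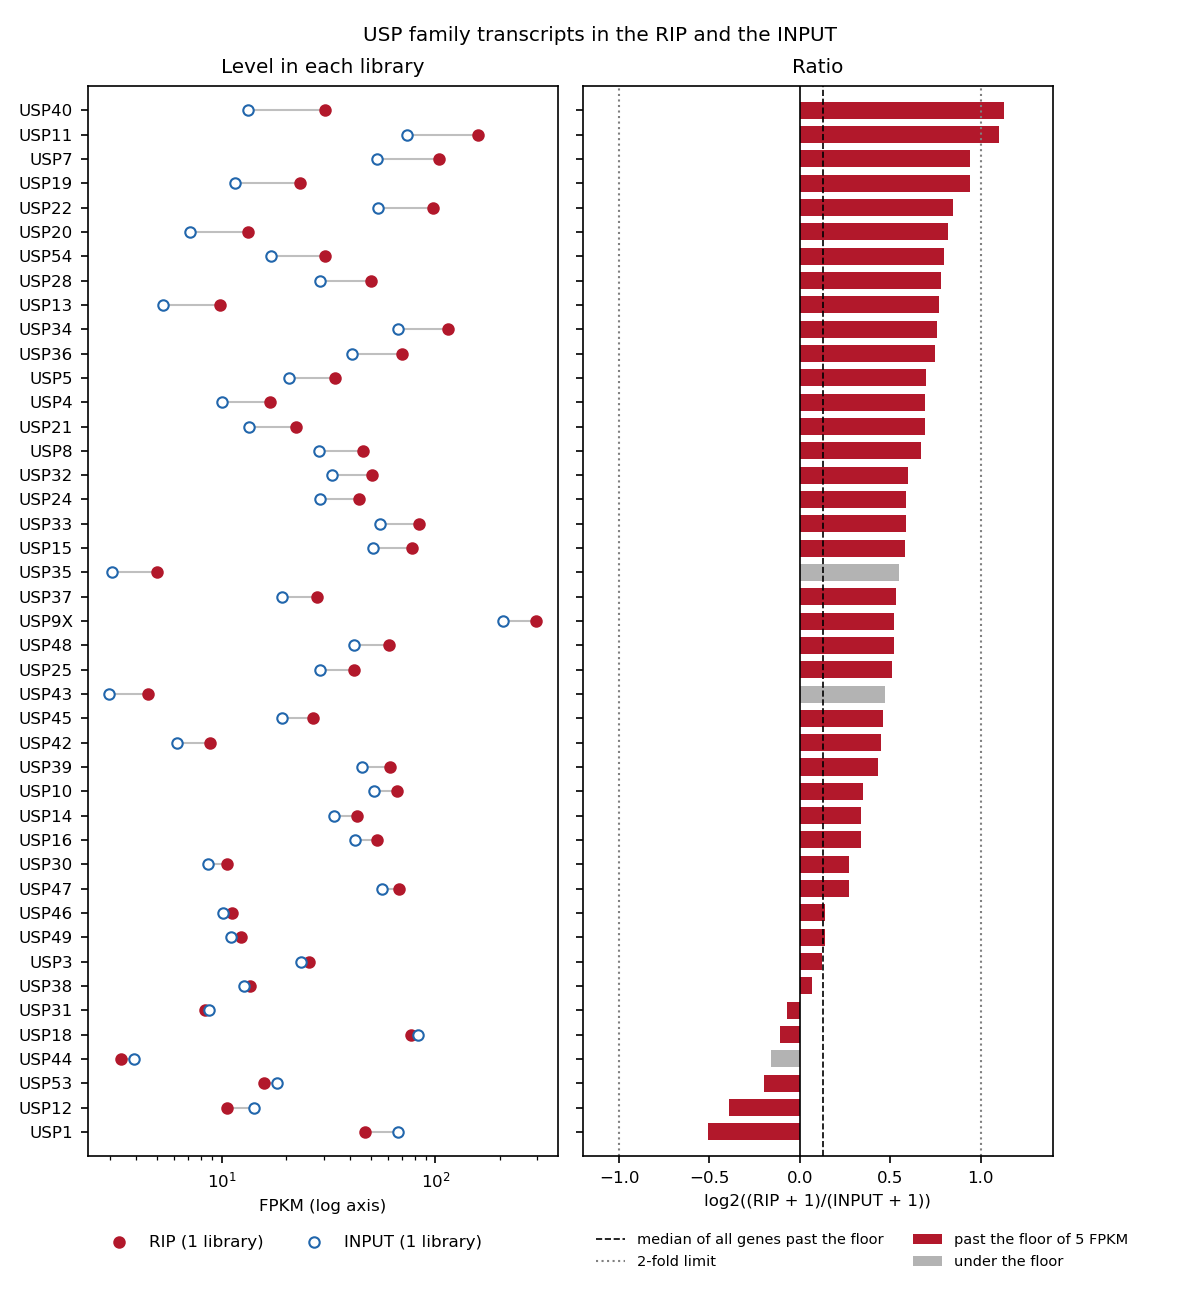
FPKM of the 43 members in the RIP (filled) and INPUT (open) library, on a log axis, and their log2 ratios as bars, ordered by ratio. USP40 and USP11 pass the dotted 2-fold limit, USP1 has the lowest ratio at -0.51, and the 3 grey bars are members under the floor of 5 FPKM.

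The values rest on estimated depths of 24700000 (RIP) and 15200000 (INPUT) fragments. For the 40 members this gave 143 to 3739 (RIP) and 72 to 2487 (INPUT) estimated fragments, with a counting error of the log2 ratio of 0.04 to 0.20 (SE). These used the median annotated transcript length, which for many members is far below that of the principal coding transcript, so both are rough. Counting error is the only error these files allow, and the spread between experiments is unknown. The bait transcript TOP3B stood at 30666 FPKM in the RIP library, against 15062 in the INPUT library. HEK293 is known to express neuronal-type and embryonic kidney genes. Of 5 such genes 4 were in the table, VIM at 679 and 544 FPKM among them, and PAX2 was missing from it. Of 7 kidney tubule markers only LRP2 was in the table, and 0 of 4 hepatocyte and 0 of 5 blood cell markers were.

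The scaling of the libraries moved all ratios together. Centring on the median gene lowered every ratio by 0.13, and equal summed FPKM of coding genes lowered the median gene by 0.16, which left 33 and 31 of 40 members above 0. Equal summed FPKM of all genes raised the median gene by 0.45 and left 39 members above 0, with USP1 alone below. These counts moved with the median of all genes, and the share of all genes above 0 was not counted at these scalings. The family and all-gene medians were 0.40 and 0.00 after centring, 0.36 and -0.03 with equal coding sums, and 0.99 and 0.57 with equal total sums. Over all genes the 2-fold limit was passed upwards by 588 and downwards by 300 genes as deposited, by 365 and 450 after centring, by 325 and 491 with equal coding sums, and by 2557 and 131 with equal total sums. Directions near 0 therefore depend on the scaling, and the values below are to be read against the all-gene median of 0.13.

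The genome upkeep and cell cycle group held the widest range of ratios. USP11, a paralog of USP4 and USP15 linked to DNA repair, stood at 158 FPKM in the RIP library, against 73.3 in the INPUT library, a ratio of 1.10. USP7, which removes ubiquitin from MDM2, stood at 104 FPKM in the RIP library, against 53.3 in the INPUT library, a ratio of 0.94. USP28, which stabilises MYC and binds 53BP1, stood at 50.2 and 28.9 FPKM, a ratio of 0.78. All these lay well above the median gene, whereas the last member of the group lay far below it. USP1, which takes ubiquitin off FANCD2 and PCNA, stood at 46.7 FPKM in the RIP library, against 66.8 in the INPUT library, a ratio of -0.51 and the lowest of the family. USP24, a very large relative of USP9X, had 43.9 and 28.7 FPKM (ratio 0.59), and USP37, which acts on cyclin A, had 28.0 and 19.1 FPKM (0.53). USP48 had 60.4 and 41.8 FPKM (0.52), USP45, which acts on the repair nuclease subunit ERCC1, 26.6 and 19.1 FPKM (0.46), and USP47, which acts on DNA polymerase beta, 67.9 and 56.1 FPKM (0.27). Over the 9 members the median was 0.53, and 8 were above 0, against 58.7% of all genes and 60.8% of coding genes.

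USPs that act on histones ranged from near the median gene to well above it. USP22, the H2B deubiquitinase of the SAGA coactivator complex, stood at 97.9 FPKM in the RIP library, against 54.0 in the INPUT library, a ratio of 0.85. USP21, an H2A deubiquitinase, stood at 22.2 and 13.4 FPKM, a ratio of 0.69. The H2A enzymes USP16 (53.4 and 42.1 FPKM) and USP3 (25.7 and 23.6 FPKM) had ratios of 0.34 and 0.12. USP22 and USP21 thus lay apart from the other measured histone USPs. The H2B enzyme USP49 had 12.3 FPKM in the RIP library, against 11.1 in the INPUT library, a ratio of 0.14. Its paralog USP44 was under the floor in both libraries, at 3.40 and 3.90 FPKM. The median over 5 members past the floor was 0.34. Among the SAGA genes set beside USP22, TRRAP had 41.55 and 21.07 FPKM (ratio 0.95) and the module subunits ATXN7 and ATXN7L3 had ratios of 0.77 and 0.63. The small module subunit ENY2 went the other way, with 67.4 FPKM in the RIP library, against 93.7 in the INPUT library, a ratio of -0.47.

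All 6 USPs that work at RNA or RNA granules had ratios above 0, against 58.7% of all genes and 60.8% of coding genes. USP36, a nucleolar deubiquitinase needed for ribosome production, stood at 69.6 FPKM in the RIP library, against 40.9 in the INPUT library, a ratio of 0.75. USP4 and USP15, which the U4/U6 recycling factor SART3 brings to the spliceosome, had ratios of 0.69 (16.9 and 10.1 FPKM) and 0.58 (77.4 and 51.3 FPKM). SART3 itself had 67.1 and 42.9 FPKM, a ratio of 0.63 that lay between them. USP42, found in nuclear speckles, had 8.81 and 6.18 FPKM (0.45). USP39, the spliceosomal member whose stretch above encodes aspartate in place of cysteine, had 61.4 and 45.3 FPKM (0.43). USP10, which binds the stress granule protein G3BP1, had 66.1 and 51.8 FPKM (0.35), and G3BP1 and G3BP2 had ratios of 0.03 and 0.33. The 6 members had a median of 0.52 and a narrow range of 0.35 to 0.75, so RNA-associated members were not higher than the family as a whole.

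Members that deal with the proteasome and with free ubiquitin chains were higher as well. USP13 stood at 9.83 FPKM in the RIP library, against 5.33 in the INPUT library, a ratio of 0.77. Its paralog USP5, which takes apart free ubiquitin chains, stood at 34.1 and 20.7 FPKM, a ratio of 0.70. USP14, which sits on the proteasome and trims ubiquitin from substrates, stood at 42.8 and 33.7 FPKM, a ratio of 0.34. USP13 rested on 437 and 146 estimated fragments, so its higher ratio than that of USP5 lies within counting error.

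USPs of membranes, trafficking and mitochondria had a median ratio of 0.64 over 6 members, and a median of 24.5 exons. All 6 ratios were above 0, against 58.7% of all genes and 60.8% of coding genes. USP19, which has a form anchored in the endoplasmic reticulum, stood at 23.2 FPKM in the RIP library, against 11.6 in the INPUT library, a ratio of 0.94. USP20 (13.4 and 7.15 FPKM) and its paralog USP33 (83.6 and 55.2 FPKM), both known for binding the VHL ubiquitin ligase, had ratios of 0.82 and 0.59. USP8, the endosomal member that works with STAM proteins, had 45.9 and 28.4 FPKM (0.67), with STAM at 0.44 and STAM2 at 0.20. USP32 had 50.5 and 32.9 FPKM (0.60). USP30, which sits on the mitochondrial outer membrane and opposes Parkin, was the lowest of them at 10.6 and 8.63 FPKM (0.27). USP35 was just under the floor, at 4.97 and 3.09 FPKM.

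The signalling group held the most abundant member and some of the lowest ratios. USP9X, whose substrates include the survival protein MCL1, had the highest level of the family, 296 FPKM in the RIP library, against 206 in the INPUT library, a ratio of 0.52. It made up 14.4% of the summed FPKM of the members past the floor in the RIP and 14.5% in the INPUT. USP34, which acts on axin in Wnt signalling, stood at 114 and 66.9 FPKM, a ratio of 0.76. USP25, linked to immune signalling, had 41.8 and 29.01 FPKM (0.51). These members lay near or above the family median, unlike the next. USP18, which removes the ubiquitin-like protein ISG15, had 77.2 FPKM in the RIP library, against 83.3 in the INPUT library, a ratio of -0.11. The small paralogs USP46 and USP12 had ratios of 0.14 (11.2 and 10.1 FPKM) and -0.39 (10.6 and 14.2 FPKM). The group's median over 6 members was 0.33.

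USP1, USP12 and USP46 share a cofactor, the WD-repeat protein WDR48 (also called UAF1), and this set was picked after its values were seen. WDR48 had 26.9 FPKM in the RIP library, against 29.5 in the INPUT library, a ratio of -0.13, and WDR20, a further cofactor of USP12 and USP46, had 8.94 and 10.8 FPKM, a ratio of -0.25. All 5 transcripts were at or near the median gene or below it. Of the USP1 substrates, FANCD2 had a ratio of 0.67, its partner FANCI 0.49 and PCNA 0.14.

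The other members were at the top and near the bottom of the ranking. USP40 had the highest ratio of the family, 1.13, with 30.3 FPKM in the RIP library, against 13.3 in the INPUT library. USP54 had 30.6 and 17.1 FPKM (0.80), while its paralog USP53 had 15.8 and 18.2 FPKM (-0.20). USP38 (13.5 and 12.8 FPKM) and USP31 (8.34 and 8.78 FPKM) had nearly equal levels in both libraries, with ratios of 0.07 and -0.07. The median over these 5 members was 0.07. USP43 was under the floor, at 4.53 and 2.98 FPKM.

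Close paralogs could differ in ratio. Of 14 paralog pairs with both members in the table, 11 had both past the floor. The largest gap was that of USP53 and USP54, at -0.20 and 0.80, which also differ in exon number (15 and 23). USP12 and USP46, which have 9 exons each and are identical at 77.1% of aligned coding bases, differed by 0.53, with USP12 lower. USP11 was 0.52 above USP15 and 0.41 above USP4, although the exon numbers were 21, 21 and 22. The pairs USP5 and USP13, and USP9X and USP24, differed by 0.07. Identity of the aligned coding bases ran from 60.0% to 77.1% over the 14 pairs. As a share of the longer coding region it ran from 42.8% (USP53 and USP54) to 75.8% (USP12 and USP46). No pair shared a stretch of 31 identical coding bases.

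Other loci were a larger source of shared sequence. In 18 members no 31-base stretch of the reference transcript occurred in a transcript of another gene, and in 19 members under 5% of stretches did. The other 6 shared at least 10%. USP32 shared 37.5%, in part with USP6, a gene in part derived from it. USP18 shared 30.8%, mostly with USP41, USP10 30.3% and USP31 25.7%, while USP12 shared 13.1% and USP8 12.8%. The levels of these 6 are less certain, and without them, a setting chosen after seeing the data, the family median was 0.56 over 34 members.

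The ratio went with the number of exons, in the family as among all coding genes. Members with 7 to 10 exons had a median ratio of 0.07 (n = 5), those with 11 to 15 exons 0.31 (n = 8), those with 16 to 20 exons 0.45 (n = 7), those with 21 to 30 exons 0.72 (n = 14) and those with 31 or more 0.68 (n = 6). The coding genes of the same classes had medians of 0.06, 0.27, 0.42, 0.52 and 0.66. Outside the class of 21 to 30 exons, the member medians thus lay close to those of coding genes. Coding genes with 1 to 3 exons, a class with no USP, had a median of -0.25. The family has many exons, with a median of 20.5 against 10 for coding genes, and long coding regions, with a median of 2892 bases against 1431. Within the exon classes 25 of 40 members were above the class median, 12 were above the upper quartile and 6 below the lower. A class median splits its coding genes evenly, and by definition 25% of them lie beyond each quartile. The count above the upper quartile was thus near the share of coding genes. By coding length the order was similar: the 9 members with over 1000 and up to 2000 coding bases had a median ratio of 0.27, the 13 with up to 3000 bases 0.58, the 11 with up to 4000 bases 0.67 and the 7 longer ones 0.59. Coding genes of these classes had 0.15, 0.37, 0.50 and 0.57. By role, the median exon number was 26 for genome upkeep, 24.5 for membrane, 20 for proteasome and 19.5 for RNA-associated members. It was 17.5 for signalling, 16 for other and 14 for histone members. Role medians of the ratio were not tested apart from exon number. The part of exon number in the ratios was not tested beyond exon and length classes.

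**Figure D2:**
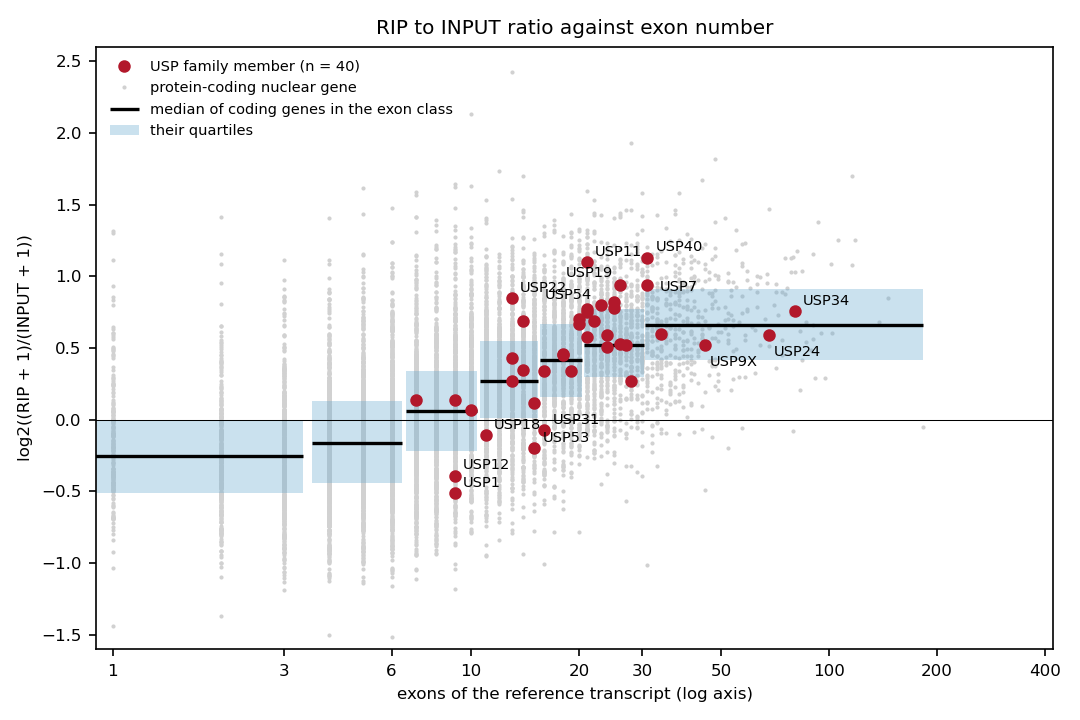
Log2 ratio against the exons of the reference transcript, on a log axis, for the 40 members past the floor (red) and for protein-coding nuclear genes (grey), with the median and quartiles of the coding genes in each exon class. Members follow the step from 0.06 in the class of 7 to 10 exons to 0.66 in that of 31 or more, with USP11, USP22 and USP40 above the quartiles of their class and USP1 and USP12 below.

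Against their own exon class, many members at both ends of the ranking lay outside the quartiles. They were picked by the same ratio, so this describes the ranking and is no separate support. USP40 (31 exons) and USP7 (31 exons) lay above the upper quartile of 0.91 of their class, and USP11 (21 exons) and USP19 (26 exons) above that of 0.77. USP22, with 13 exons, exceeded the upper quartile of 0.55 of its class. USP34, with 80 exons the member with most, lay at 0.76 between the quartiles of 0.42 and 0.91. USP1 and USP12, with 9 exons each, lay under the lower quartile of -0.22 of their class, and so did USP18, USP53, USP31 and USP47 in theirs. USP47 is one of these only relative to its 28 exons, since its ratio of 0.27 is above the all-gene median.

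Base composition went with the ratio too. Across the 40 members Spearman's rho of the ratio was 0.63 with exon number and 0.63 with the GC content of the 3′ UTR, against 0.57 and 0.23 across coding genes. GC content of the whole transcript had a rho of 0.49 and that of the coding region 0.40, against 0.24 and 0.15 across coding genes. The whole transcript includes the 3′ UTR, and GC content of the coding region was not tested apart from that of the 3′ UTR. These rho values are descriptions across genes that share both libraries. The 20 members with a 3′ UTR above 39.77% GC had a median ratio of 0.69 (range -0.11 to 1.13), and the other 20 had 0.40 (range -0.51 to 0.78). USP40, USP11, USP19, USP20 and USP5 had 54.9% to 60.4% GC in the 3′ UTR and ratios of 0.70 or more, whereas USP1 and USP53 had 31.1% and 28.8%. A low GC content did not always go with a low ratio: USP16, with the lowest GC content of the 40 members (27.9%), had a ratio of 0.34, and USP45 (31.5%) had 0.46. Exon number and 3′ UTR GC content were themselves only weakly related in the members (rho 0.21).

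**Figure D3:**
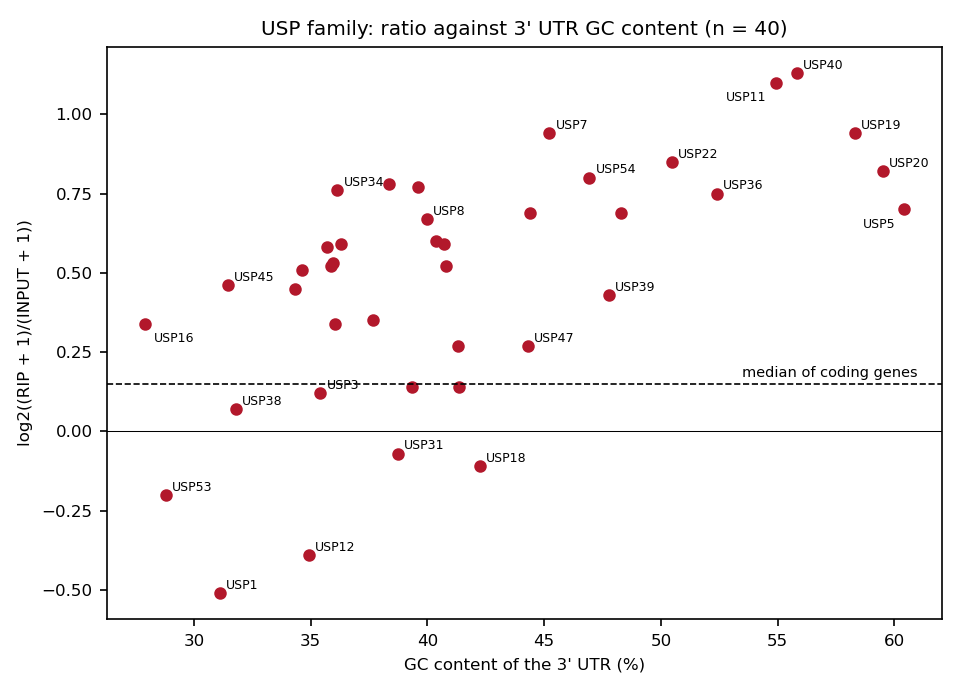
Log2 ratio against the GC content of the 3′ UTR, in percent, for the 40 members past the floor, with the coding-gene median of 0.15 as a dashed line. Members with the highest GC content lie between 0.70 and 1.13, and those with ratios below 0 have GC contents of 28.8% to 42.2%.

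Sequence elements of the 3′ UTR were counted on the sense strand. The AU-rich pentamer ATTTA was present in 32 of 40 members (80.0%) and in 72.7% of coding genes with a 3′ UTR of at least 50 bases, and its density had a rho of -0.46 with the ratio in the members and -0.14 in coding genes. Members with ATTTA had a median ratio of 0.52 and those without 0.64. ATTTA holds no G or C, and its relation to the ratio apart from the 3′ UTR GC content was not tested. The Pumilio element TGTANATA was present in 13 of 40 members (32.5%) and in 29.5% of coding genes, with medians of 0.52 with and 0.59 without it. A match is only a run of letters and not a site shown to be bound.

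Deubiquitinases outside the family were nearer to the median gene. Over 36 of them past the floor the median ratio was 0.15. Ratios above 0 were found in 23 (63.9%), against 58.7% of all genes and 60.8% of coding genes. The 2-fold limit was passed upwards by 2 and downwards by 0, against 4.90% and 2.50% of all genes. Their transcripts had a median of 9 exons. TNFAIP3, which restrains NF-kappaB signalling, had 16.1 FPKM in the RIP library, against 6.60 in the INPUT library, a ratio of 1.17. MYSM1, an H2A deubiquitinase of the JAMM class, had 68.8 and 31.2 FPKM (1.12), and ZUFSP, which cuts long K63-linked chains, 60.0 and 32.3 FPKM (0.87). The lowest were YOD1 (6.32 and 10.8 FPKM), EIF3H (79.0 and 108.8 FPKM) and VCPIP1 (5.35 and 7.49 FPKM), with ratios of -0.69, -0.46 and -0.42. No test of the difference from the USP family was possible with 1 library a group.

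Partners and substrates of USPs covered the range of the family. Over 28 genes the median ratio was 0.46. Ratios above 0 were found in 24 (85.7%), against 58.7% of all genes and 60.8% of coding genes. The 2-fold limit was passed upwards by 2 and downwards by 0, against 4.90% and 2.50% of all genes. DNMT1, the maintenance DNA methyltransferase that USP7 stabilises, had 334 FPKM in the RIP library, against 135 in the INPUT library, a ratio of 1.30. TP53BP1, which encodes the USP28 partner 53BP1, had 50.2 and 23.6 FPKM (1.06). The USP7 substrate MDM2 (506 FPKM in each library) had a ratio of 0.00, far from the 0.94 of USP7 itself. The lowest were ENY2, WDR20 and WDR48, given above.

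**Figure D4:**
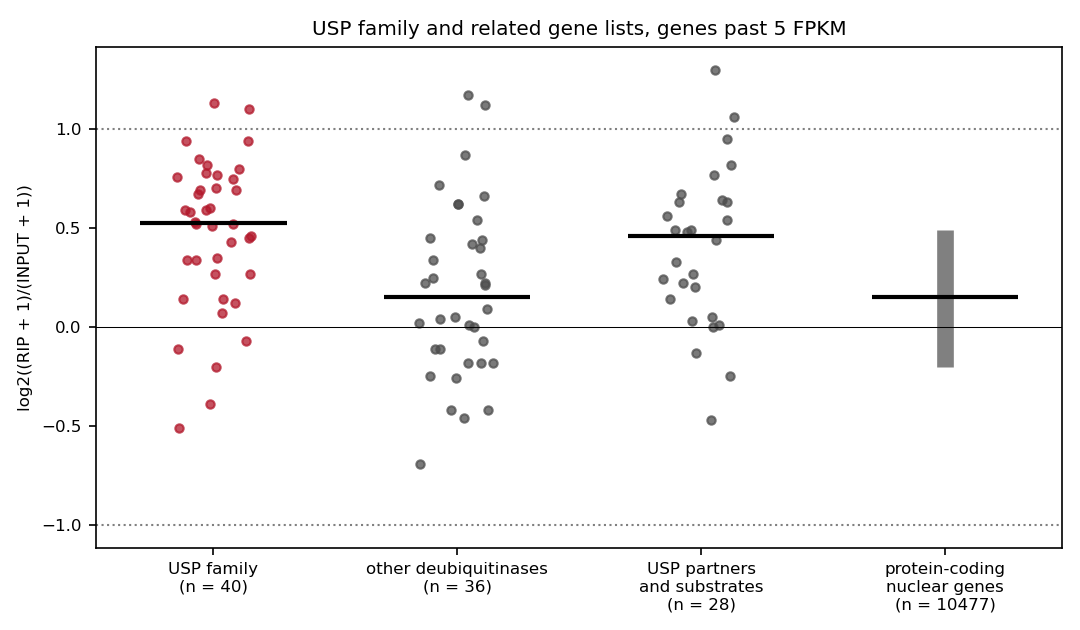
Log2 ratios of genes past the floor in the USP family and 2 related lists, with medians as black lines, and the median and quartiles (grey bar) of protein-coding nuclear genes. The family's median of 0.52 and that of its partners, 0.46, lie above the 0.15 of other deubiquitinases and of coding genes, and ranges overlap throughout.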

How the data were processed

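RNA was sequenced from 1 RIP and 1 INPUT library. Per the submitters' processing notes, the authors used cutadapt 1.18, Trimmomatic 0.3, STAR 2.6.1, RSEM 1.2.31 and build hg38, and per the labels' protocols a stranded total RNA kit. Their settings and gene models, and any filter on genes, are unstated in these sources. The deposited values were taken as FPKM because they carry decimals and sum to 1090243 (RIP) and 1512049 (INPUT). FPKM depends on transcript length and on the library's few most abundant RNAs. Depth was estimated as the fragment number that best turned low FPKM of genes with 1 transcript into whole fragments: 71.9% of 153 genes (RIP) and 66.1% of 286 (INPUT) came within 0.15 of a whole fragment, a window that covers 30% of all values. The search was tested on simulated data. Estimated fragments of members used the median annotated transcript length.

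The ratio used a pseudocount of 1 FPKM, which understates differences of low genes, and a floor of 5 FPKM in at least 1 library. Annotation and transcripts were GENCODE release 29 (12983 of 13075 rows matched by identifier), with 1 principal coding transcript a gene. The 52 USP genes listed by role include 9 that were not analysed here. Members, lists and exon classes were chosen with earlier results of these data known. All members were named, and of other lists the 3 highest and lowest, plus partners set beside their USP after values were seen. Some listed genes are not reported here and are left out of their lists. No p-value was computed. Count-based scaling was not run, since the table holds no counts. Python 3.11.15, numpy 2.4.6, scipy 1.17.1, pandas 2.3.3, biopython 1.88 and matplotlib 3.10.9 were used.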

Additional observations from a re-analysis of the deposited data

How the results depend on the processing

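No paired analysis was possible because there is only 1 library on either side. Count-based scaling was not run, since the table holds no counts. Causes were not tested. USP12, USP30 and USP20 had the least estimated fragments, but this order depends on the transcript length used. For USP12 the median annotated length was 712 bases and the principal coding transcript had 4511. Of the single-gene values under other settings, 211 stayed within their counting interval and 61 moved beyond it, with intervals from the same rough fragment numbers. The 61 include every member past the floor with equal summed FPKM of all genes, so that scaling moved all of them.

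Against a family median of 0.52 with 2 members at least 2-fold higher and 0 lower, and 588 higher and 300 lower genes of all with a median of 0.13, pseudocount 5 gave 1 member, 300 and 180 genes and an all-gene median of 0.10. It left 1 partner and 1 other deubiquitinase of 2 each. The floor of 20 FPKM gave 352 and 157 genes, a median of 0.21 and 1 other deubiquitinase. Centring gave 1 member, 1 partner, 1 other deubiquitinase, 365 higher and 450 lower genes with a median of 0.00, and -0.05 for the members listed as other USPs (0.07 as reported). Equal summed FPKM of coding genes gave 0 members, 1 partner, 1 other deubiquitinase, 325 and 491 genes and a median of -0.03, with -0.08 for the other USPs and -0.01 for other deubiquitinases, so lower genes outnumbered higher ones under both. The other USPs had 0.97 with the floor of 20 FPKM, which leaves USP40 and USP54, and 0.27 with no floor.

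Equal summed FPKM of all genes gave 19 of 40 members at least 2-fold higher and a family median of 0.99. Over 11990 genes it gave 2557 higher and 131 lower, with a median of 0.57. By role it gave 0.98 for genome upkeep, 0.97 for RNA-associated, 1.15 for proteasome, 1.10 for membrane, 0.77 for signalling and 0.80 for histone members, and 0.51 for the other USPs. It gave 0.92 and 10 higher for partners, and 0.58 and 7 for other deubiquitinases.

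The 1.5-fold limit was passed upwards by 18 of 40 members and 2386 of 11990 genes, and downwards by 0 members and 1222 genes. It was passed upwards by 9 of 28 partners and 7 of 36 other deubiquitinases, and downwards by 1 other deubiquitinase. The 4-fold limit gave 0 of each list, and 79 and 84 genes. Coding genes alone (added after seeing the data) gave 375 and 44 genes with a median of 0.15. Spearman's rho of the members' ratio was 0.00 with the longest transcript and -0.49 with the median annotated length.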

Other observations

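Further rows carry a USP name but are not members of the family. USP32P2, USP32P3 and USP32P1 are transcribed pseudogene copies of USP32 on chromosome 17. USP32P2 had 22.9 FPKM in the RIP library, against 11.01 in the INPUT library (ratio 0.99), USP32P3 had 14.0 and 6.39 FPKM (1.02), and USP32P1 had 5.18 and 3.98 FPKM (0.31), against 0.60 for USP32. Fragments of these copies and of USP32 may be assigned to one another. USP3-AS1, an antisense gene that overlaps USP3 on chromosome 15, had 4.29 FPKM in the RIP library, against 1.78 in the INPUT library, under the floor, while USP3 had a ratio of 0.12. USPL1, which is related to USPs but acts on SUMO and was counted above among the other deubiquitinases, had 10.9 and 8.89 FPKM (0.27). USP6NL, which encodes a GTPase-activating protein and no deubiquitinase, had 7.97 and 10.3 FPKM (-0.34).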
